A study of Mus musculus with 16 samples.

Results

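miR-221 and miR-222 are a pair of mouse miRNAs whose hairpins, Mir221 and Mir222, lie side by side on the X chromosome. They are 2 of the 1174 annotated hairpins counted and give 4 of the 577 miRNA arms that had a read. The members are the reads of 18 to 26 nt that match these hairpins without mismatch, divided into 5p and 3p arms. The pair was chosen by the measured level of miR-222-3p in the PAZ mutant of Dicer, which is low there, so every value of that mutant against another group is a description with no test.

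Small RNA of mesenchymal stem cells from C57BL/6 mice was sequenced in 16 libraries, 2 in each of 8 groups. WT cells (Dicer f/f) and KO cells (Dicer -/-) carried mCherry, a red fluorescent protein used as a control. The other groups were Dicer -/- cells transfected with human Dicer: hsDicer is that protein without a change, and the mutants are D1320A (RNase IIIA), D1709A (RNase IIIB), D1320A/D1709A (both domains), K70A (helicase) and Y971A/Y972A (PAZ). The labels do not say whether the 2 replicates came from separate cultures, so p-values measure the spread between these libraries, which may be technical. In the tests of arm levels it is a spread shared across arms, not that of 1 arm alone. The libraries held 10331036 to 20502254 inserts of 15 nt or more, and levels are given as CPM, reads scaled to 1000000 of these inserts. Replicate 1 was read to 41 nt and replicate 2 to 51 nt in every group. Marker miRNAs were looked up by exact name, so a hairpin annotated under a longer name was not counted. Markers of mesenchymal cells summed to 251500 and 163100 CPM in WT, with no read under the name miR-145, 1 of these 6. No read stood under the name of the endothelial marker miR-126 either, and neither zero shows absence. Reads were found for 5 of 6 blood markers (376.5 and 192.4 CPM in WT) and 2 of 3 neural markers (0 and 137 CPM in WT). miRNA reads were 47.4% and 37.5% of inserts in WT and 1.54% and 0.293% in KO. Reads of Dicer1 reached at most 139.8 CPM in any library and check nothing, since small RNA reads of an mRNA do not measure it.

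Dicer receives the precursor hairpin left by Drosha and cuts it near the loop. RNase IIIA cuts the 3p strand and so makes the 5′ end of the 3p arm, and RNase IIIB cuts the 5p strand and so makes the 3′ end of the 5p arm. The PAZ domain holds the end of the precursor. miR-221-3p and miR-222-3p are best known for lowering p27 (Cdkn1b), an inhibitor of the cell cycle, and the receptor Kit.

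The hairpins are shown because every result below is a position on one of them. Both are on the minus strand of the X chromosome (GRCm38.p6, RefSeq), miR-221 at chrX:19146294-19146388 and miR-222 at chrX:19146893-19146971, and neither lies in another annotated gene. Capitals mark the 5p read most used in WT and the RefSeq 3p miRNA.
miR-221 hairpin: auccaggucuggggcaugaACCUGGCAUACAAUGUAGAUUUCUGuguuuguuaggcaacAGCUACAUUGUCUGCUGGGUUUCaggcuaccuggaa
miR-222 hairpin: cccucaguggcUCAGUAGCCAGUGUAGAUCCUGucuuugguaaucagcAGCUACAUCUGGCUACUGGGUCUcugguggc
The 5p and 3p arms are 15 nt apart in both hairpins. The folding energy from RNAfold was -42.8 kcal/mol for the 95 nt of miR-221 and -40.7 kcal/mol for the 79 nt of miR-222.

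The mature sequences are given with the seed, bases 2 to 8, in capitals, because the seed is what the pair shares. RefSeq has an entry for miR-221-5p and for both 3p arms; miR-222-5p is shown as the read most used in WT.
miR-221-3p: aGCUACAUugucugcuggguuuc
miR-222-3p: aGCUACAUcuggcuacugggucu
miR-221-5p: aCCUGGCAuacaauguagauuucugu
miR-222-5p usual read: uCAGUAGCcaguguagauccug
The 3p arms have the same first 8 bases and match at 11 of 23 positions when set side by side without gaps. Of 1738 mature entries in the table, 3 carry the seed GCUACAU: these 2 and miR-1928.

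The DNA letters that pair with this seed, ATGTAGC, were present in the 3′ UTR of 1793 of 21025 mouse genes (8.53%; sense strand, 1 transcript a gene). Kit had 2 such matches and Cdkn1b and Cdkn1c, another inhibitor of the same family, had 1 each. They are printed, in capitals with their flanks, to show what the seed could pair with; target mRNAs were not measured in these libraries, and a match is not a site of action.
Cdkn1b (chr6:134924431-134924437, plus strand): aaaagcattggATGTAGCattgcgcaatt
Cdkn1c (chr7:143458926-143458932, minus strand): acctttcgttcATGTAGCaggaaccggag
Kit, first match (chr5:75654992-75654998, plus strand): atgggagatatATGTAGCaagactagaaa
Kit, second match (chr5:75656523-75656529, plus strand): taaatattgaaATGTAGCaataatgtctt

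In cells with Dicer the 3p arms carried nearly all reads of both hairpins, and miR-222-3p was the more abundant. miR-222-3p stood at 1263 and 2353 CPM in the 2 WT libraries, place 35 and place 18 among the arms of those libraries. miR-221-3p stood at 495 and 846 CPM, at places 64 and 43. The most abundant arm of WT was miR-22-3p. The 5p arms had no read in WT replicate 1, which allows up to 0.173 CPM, while replicate 2 held 430 reads of miR-221-5p (21.0 CPM) and 242 of miR-222-5p (11.8 CPM). So 5p reads made up 2.42% of miR-221 and 0.499% of miR-222 reads in WT replicate 2 (95% Wilson intervals 2.20 to 2.66% and 0.440 to 0.566%, which cover counting error only).

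In the order of group means, miR-222-3p was highest in WT at 1808 ± 771 CPM (SD, n = 2), followed by K70A at 1277 ± 657 and hsDicer at 1225 ± 673. Y971A/Y972A had 64.2 ± 89.2, D1709A 59.2 ± 45.7, D1320A 17.4 ± 1.46, D1320A/D1709A 7.62 ± 9.83 and KO 4.98 ± 1.03 CPM. The libraries of WT, K70A and hsDicer overlapped each other, and all lay above those of the other 5 groups. miR-221-3p ran from 670 ± 248 CPM in WT and 584 ± 50.4 in K70A to 364 ± 31.3 in hsDicer, 306 ± 253 in D1709A and 239 ± 241 in Y971A/Y972A. Far lower were its levels of 3.17 ± 1.19 CPM in KO, 2.70 ± 3.12 in D1320A and 0.648 ± 0.572 in D1320A/D1709A. D1709A libraries lay on both sides of hsDicer for miR-221-3p but below it for miR-222-3p. Y971A/Y972A was near hsDicer for miR-221-3p in replicate 1 only, and its replicate 2 was lower for both arms.

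**Figure D1:**
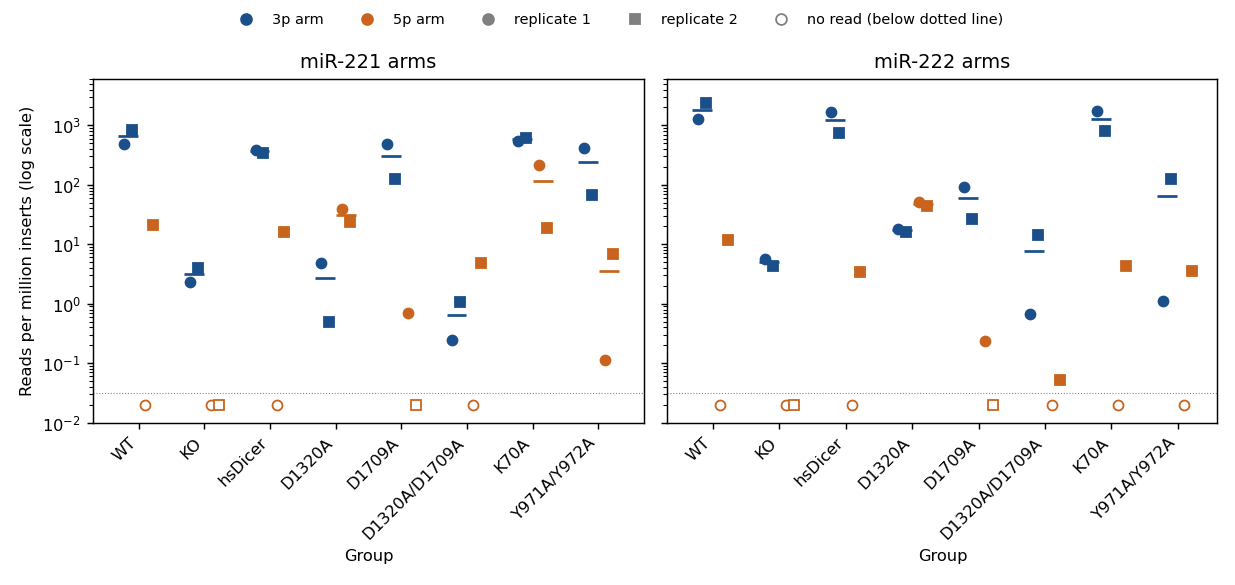
Level of each arm of miR-221 (left) and miR-222 (right) in CPM on a log scale, by group; circles are replicate 1, squares replicate 2, lines the mean of 2 libraries with reads, and open symbols libraries with no read. The 3p arms are at 342 CPM or more in every library of WT, hsDicer and K70A, and the 5p arm of miR-222 lies above its 3p arm in both D1320A libraries.

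The first comparison sets cells without Dicer beside cells with it. miR-222-3p fell from 1263 and 2353 CPM in WT to 5.71 and 4.26 in KO, a log2 change of -8.50 (SE 2.56; edgeR quasi-likelihood test, Benjamini-Hochberg adjusted p = 0.0215 over 540 arms). miR-221-3p was at 2.32 and 4.01 CPM in KO, a log2 value of -7.72 against WT (SE 2.95), with edgeR adjusted p = 0.105 over 540 arms and 0.0120 over those of 10 CPM or more. Among replicate 1 libraries, read to 41 nt, and replicate 2 libraries, read to 51 nt, the log2 ratio of KO to WT was -7.79 and -9.11 for miR-222-3p and -7.73 and -7.72 for miR-221-3p. Neither 3p arm overlapped between the groups, and neither 5p arm had a read in KO. Of all 540 arms tested, 5.74% were called lower in KO, and 22.4% had both KO libraries below both WT libraries (0.185% had both above). Over the 202 arms of 10 CPM or more, 69 were called lower and 1 higher. The median log2 value of all arms was -6.95, and TMM and DESeq2, which take most arms as equal, moved it to -3.17 and 0. The call of miR-222-3p was lost at a like or larger log2 value without KO replicate 1 (-8.73, edgeR adjusted p = 0.341) or KO replicate 2 (-8.30, 0.455) and with snoRNA and snRNA scaling (-9.54, 0.0696), and at a smaller one with TMM (-4.12, 0.941) or DESeq2 (-1.21, 1.0). In KO replicate 1, miR-221-3p and miR-222-3p had 0.280% and 0.270% of their WT replicate 1 reads, beside a median of 0.285% over 102 abundant arms (quartiles 0.225 and 0.350%). Another set was inserts of 36 nt or less that equal no miRNA hairpin stretch and were absent from every replicate 2 library. Of these, 153 had 2000 or more reads in WT replicate 1. All 153 were also read in KO replicate 1, at 0.235% of their summed WT replicate 1 reads. Whether WT reads reached that KO library was not tested.

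Both 3p arms were high again in the cells given human Dicer. miR-222-3p stood at 1701 and 749 CPM in hsDicer, a rise of 7.94 on the log2 scale over KO (SE 2.50; edgeR adjusted p = 0.0300). miR-221-3p was at 386 and 342 CPM, with a log2 value of 6.84 (SE 2.84; edgeR adjusted p = 0.166 over 540 arms, 0.0244 over those of 10 CPM or more). Both libraries of hsDicer lay above both of KO for each, as they did for 22.2% of all arms, and 5.93% of arms were called higher. Over the 202 arms of 10 CPM or more, 57 were called higher and 0 lower. The call of miR-222-3p was lost at a like or larger log2 value without KO replicate 1 (8.17, edgeR adjusted p = 0.379), KO replicate 2 (7.74, 0.515) or hsDicer replicate 1 (7.23, 0.113) and with snoRNA and snRNA scaling (8.90, 0.0846), and at a smaller one with TMM (4.07, 1.0) or DESeq2 (1.19, 1.0). Against WT, the log2 value was -0.56 for miR-222-3p (SE 1.85) and -0.88 for miR-221-3p (SE 2.21), both at edgeR adjusted p = 1. Both hsDicer libraries of miR-221-3p were below WT, as for 9.44% of arms (2.04% had both above), and 0 of 540 arms were called by edgeR; a missed threshold does not show equal levels. The 5p arms again had no read in replicate 1, which allows up to 0.208 CPM, and 16.2 CPM (miR-221-5p) and 3.35 CPM (miR-222-5p) in replicate 2.

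With the RNase IIIA change, the balance of the arms was the opposite of that in hsDicer. miR-222-3p was at 18.4 and 16.3 CPM in D1320A, and miR-221-3p at 4.90 and 0.493 CPM, the latter from 74 and 6 reads. miR-222-5p was at 50.8 and 43.8 CPM and miR-221-5p at 38.7 and 23.6 CPM. Both 3p arms were below, and both 5p arms above, both hsDicer libraries. As a share of the reads of a hairpin, 5p reads made up 88.8% and 98.0% for miR-221 (Wilson intervals 86.1 to 91.0% and 95.6 to 99.1%). For miR-222 they made up 73.4% and 72.8% (70.6 to 76.0% and 69.5 to 75.9%). In hsDicer these shares were 0% and 4.53% for miR-221 and 0% and 0.446% for miR-222. No group other than D1320A had a share over 50% in both libraries.

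The edgeR tests of these differences did not pass. The log2 value of miR-222-3p, D1320A against hsDicer, was -6.14 (SE 2.31; adjusted p = 0.206) and that of miR-221-3p was -7.07 (SE 2.87; adjusted p = 0.296). The change of the 5p to 3p ratio had edgeR adjusted p = 0.677 for each hairpin, and 0 of 183 hairpins passed, 11 of them with an unadjusted p under 0.05. Across all arms 2.04% were called lower, none was called higher, 17.2% had both D1320A libraries below and 8.52% both above hsDicer. Over only the arms of 10 CPM or more on average, both 3p arms passed (edgeR adjusted p = 0.0247 for miR-222-3p and 0.0471 for miR-221-3p). At that filter 20 of 202 arms were called lower and 0 higher. Among 30 abundant 3p arms, of 100 CPM or more on average, the median log2 difference of mean CPM, D1320A against hsDicer, was -6.68, and miR-221-3p was 16th and miR-222-3p 20th from the lowest. The 61 abundant 5p arms had a median of -2.03.

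Most miR-222-3p reads left in D1320A did not start where most do in the other groups. The usual 5′ end was used by 4.68% and 3.52% of them, against 100% and 95.3% in hsDicer and 100% and 97.9% in WT. All others but 1 read began 1 to 4 nt further in: in replicate 1 a start 3 nt inside was most used (37.1% of 278 reads), and in replicate 2 a start 1 nt inside (39.2% of 199 reads). A read that starts 2 nt or more inside lacks the first base of the seed. The groups did not overlap, and the exact 2-sided permutation p was 0.333, which is the smallest that 2 against 2 libraries allow. The few miR-221-3p reads of D1320A, 74 and 6, all began at the usual 5′ end. In D1320A/D1709A, 100% of 11 and 89.5% of 277 miR-222-3p reads began at the usual end. In replicate 2 of that group 9.75% began 5 nt inside. With untemplated 3′ bases allowed, 2 spans that begin 4 nt inside had 95 and 54 reads there. The most used span from the usual start had 94.

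**Figure D2:**
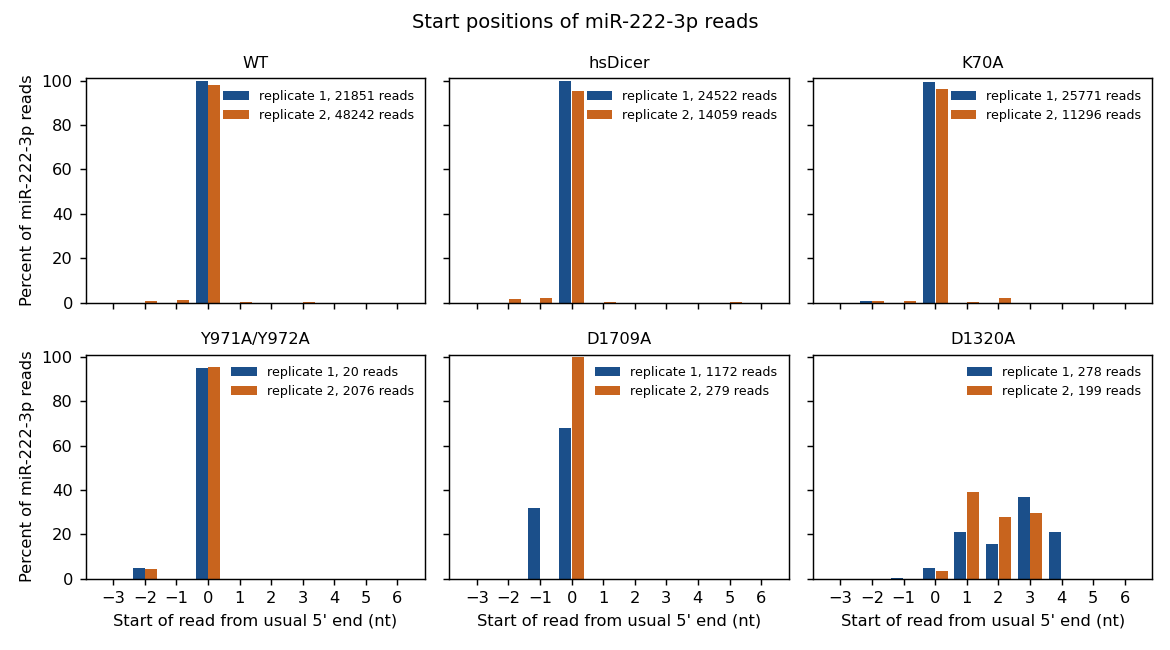
Percent of miR-222-3p reads by the distance of their first base from the usual 5′ end, in 6 groups and for each replicate, with the number of reads. D1320A is the one group shown in which most reads start elsewhere, with 4.68% and 3.52% at the usual end and all others but 1 read up to 4 nt inside.

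D1320A also held long reads from the loop. They began near the 5p cut of miR-222, ran through the loop and ended with the 3p arm. The most used one is printed, with the 3p arm in capitals, to show loop and 3p arm joined in 1 read.
miR-222 loop and 3p read: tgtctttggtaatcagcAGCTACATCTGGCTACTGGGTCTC
It spans 41 nt and had 1193 reads in D1320A replicate 1 and 187 in replicate 2, more than all miR-222-3p reads of 18 to 26 nt in replicate 1 and nearly as many in replicate 2. All miR-222 reads of this kind numbered 1327 and 187 in D1320A, 1 in hsDicer replicate 1, and 0 in the other 13 libraries. For miR-221, such reads numbered 105 and 64 in D1320A and 0 in the other 14 libraries. In replicate 1 this length equals the read length, so 1228 of the 1327 reads could be longer, but in replicate 2, read to 51 nt, all 187 ended there. The reads over 26 nt on the hairpin, of any kind, were at 88.2 and 25.6 CPM for miR-222 in D1320A and 0.0694 and 17.4 CPM in hsDicer (exact permutation p = 0.333, the smallest possible). Reads over 26 nt also reached 198 and 20.2 CPM in K70A and 152 and 11.3 CPM in Y971A/Y972A, and 62.0 CPM in WT replicate 2. None of these groups held a read that starts at the 5p cut and runs through the loop into the 3p arm. In Y971A/Y972A replicate 1, 2665 of the 2683 reads over 26 nt were a single miR-222-3p sequence of 27 nt with a 3′ tail, printed below. In K70A replicate 1, none of 2936 such reads ran from the 5p start past the 5p cut either.

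**Figure D3:**
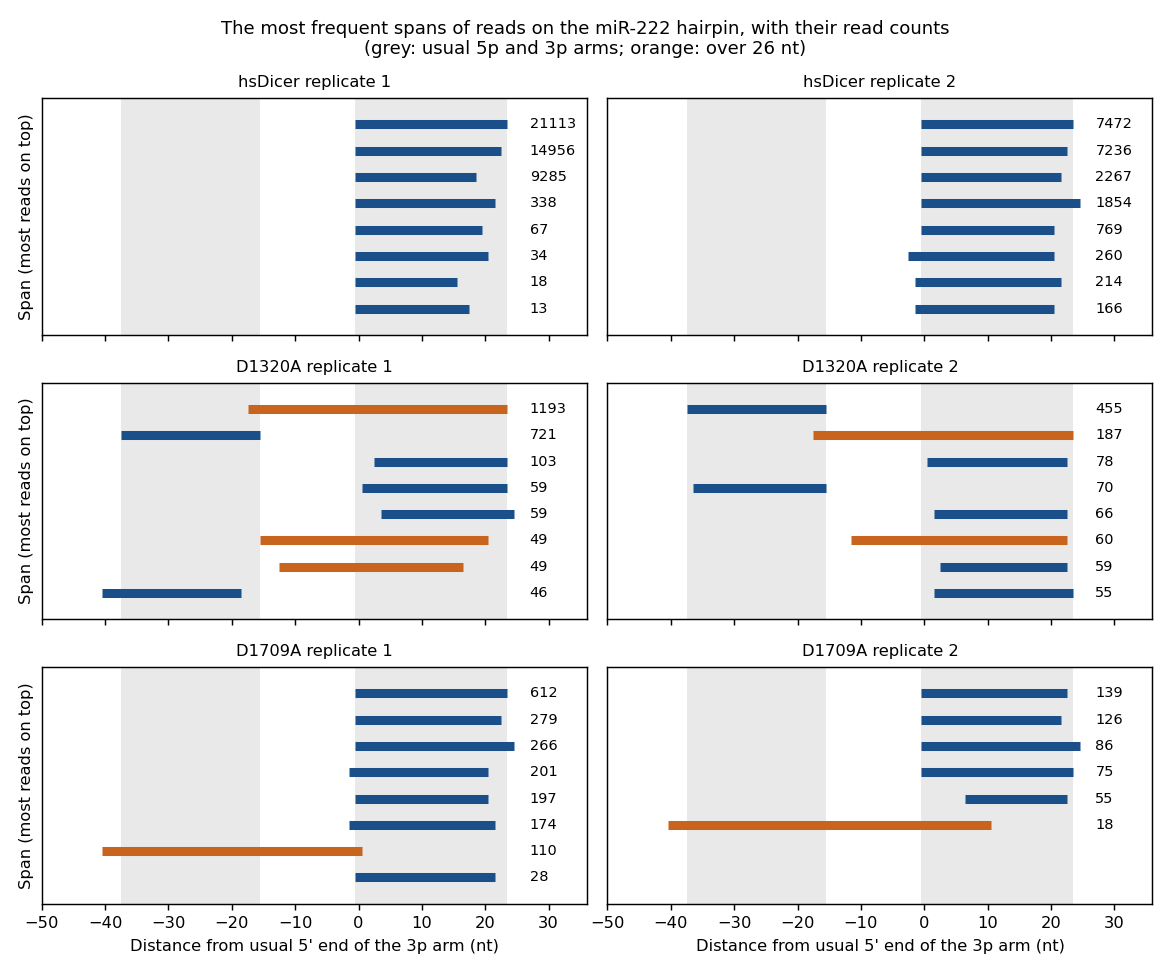
The most frequent spans of reads on the miR-222 hairpin in hsDicer, D1320A and D1709A (columns are replicates), by distance from the usual 5′ end of the 3p arm in nt; the number is the read count, grey marks the usual arms and orange spans over 26 nt. In hsDicer the 8 spans lie on the 3p arm, in D1320A the spans with 1193 and 187 reads join loop and 3p arm, and in D1709A spans with 110 and 18 reads start before the 5p arm.

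With the RNase IIIB change, the 3p arms of the pair stood at unlike levels. miR-221-3p was at 485 and 127 CPM in D1709A, on both sides of the hsDicer libraries at 386 and 342. miR-222-3p was at 91.6 and 26.9 CPM, below both hsDicer libraries. The log2 value against hsDicer was -0.25 for miR-221-3p (SE 2.20; edgeR adjusted p = 1) and -4.37 for miR-222-3p (SE 2.12; edgeR adjusted p = 0.424). The median of all arms was -2.21, moved to -0.37 by TMM and to 0 by DESeq2. The value of miR-221-3p changed sign with TMM (1.68) and without D1709A replicate 2 (0.41). With DESeq2 miR-221-3p was called higher (5.22, DESeq2 adjusted p = 0.00377), as DESeq2 called 30 of 540 arms higher and 5 lower. DESeq2 also gave 1.35 for miR-222-3p. Of all arms, edgeR called 3.33% lower and 0 higher in D1709A, and 18.9% had both libraries lower (4.81% had both higher). Among the 30 abundant 3p arms the median log2 difference of mean CPM was -1.36 (quartiles -1.99 and -0.94); miR-222-3p was the 3rd lowest and miR-221-3p the 25th. The 5p arms had 9 and 0 reads for miR-221 and 3 and 0 for miR-222, and 5p arms as a whole were low in this mutant (median -6.01 over 61). A count of 0 allows up to 0.290 CPM in D1709A replicate 2.

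The ratio of miR-222-3p to miR-221-3p reads within a library does not depend on scaling. It was 0.189 and 0.213 in D1709A, against 4.40 and 2.19 in hsDicer, 2.55 and 2.78 in WT and 3.18 and 1.31 in K70A. Both D1709A libraries lay below every library of these 3 groups (exact permutation p = 0.333 for D1709A against hsDicer, the smallest possible). With untemplated 3′ bases allowed, the D1709A ratios were 0.234 and 0.340 and those of hsDicer 8.11 and 2.91. In KO the ratios were 2.46 and 1.06, and in D1320A 3.76 and 33.2, the latter over only 6 reads of miR-221-3p. Most D1709A reads of miR-221-3p kept the usual 5′ end (96.2% and 100%); of miR-222-3p, 67.9% did in replicate 1, with the rest 1 nt earlier, and 100% in replicate 2.

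**Figure D4:**
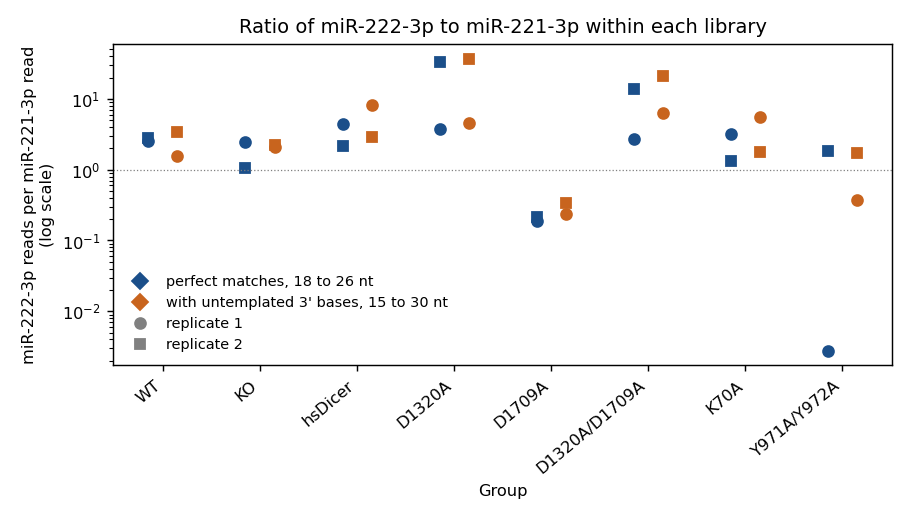
Reads of miR-222-3p per read of miR-221-3p in each library on a log scale, for perfect matches (blue) and with untemplated 3′ bases (orange); circles are replicate 1 and squares replicate 2, and the dotted line marks equal counts. Both D1709A libraries are under 1 with either count, while replicate 1 of Y971A/Y972A moves from 0.00276 to 0.375.

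D1709A had long reads of the other kind, from near the start of the 5p arm across its cut into the loop. They numbered 345 and 49 for miR-221 and 113 and 18 for miR-222. All of those of miR-222 ended at the read limit, as did 172 of 345 and 48 of 49 of miR-221. Where the molecules behind reads at the limit ended is not known. Of the other miR-221 reads in replicate 1, 163 matched the hairpin up to position 52 and 10 up to position 51. Both positions lie inside the loop (45 to 59). The read of miR-222 in replicate 2 (18 reads) is printed with bases of the 3p arm in capitals, to show an uncut 5p side; the 110 reads most used in replicate 1 are its first 41 bases.
miR-222 read past the 5p cut, D1709A replicate 2: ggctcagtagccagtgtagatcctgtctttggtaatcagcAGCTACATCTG
Other groups held such reads as well. KO replicate 2 had 180 for miR-221 and 330 for miR-222, and hsDicer replicate 2 had 90 and 116. Y971A/Y972A replicate 2 had 198 and 133, and D1320A/D1709A replicate 2 had 20 and 156. D1320A had 139 and 43 for miR-221 and 0 and 65 for miR-222. Scaled to depth, those of miR-222 were at 8.83 and 1.74 CPM in D1709A. They were at 20.7 CPM in KO, 8.21 in D1320A/D1709A and 8.15 in Y971A/Y972A, each in replicate 2. For miR-221, D1709A replicate 1 had the highest CPM of all libraries, but D1709A replicate 2, at 4.73, was below KO replicate 2, at 11.3.

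Set against each other, D1320A and D1709A stood apart in opposite directions on the 2 arms. Both 3p arms were lower and both 5p arms higher in both D1320A libraries. The log2 value was -6.82 for miR-221-3p (SE 2.84; edgeR adjusted p = 0.273) and -1.77 for miR-222-3p (SE 1.90; edgeR adjusted p = 0.705). The 5p to 3p ratio had edgeR adjusted p = 0.209 for miR-221 and 0.265 for miR-222. Of all arms, 0.741% were called lower and 1.3% higher, while 15.6% and 24.1% did not overlap in those directions. None of the 183 ratios passed, 33 with an unadjusted p under 0.05.

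With both RNase III domains changed, both 3p arms fell. miR-222-3p was at 0.668 and 14.6 CPM and miR-221-3p at 0.243 and 1.05 CPM in D1320A/D1709A, the latter from 4 and 20 reads. Against hsDicer the log2 changes were -7.33 for miR-222-3p (SE 2.44; edgeR adjusted p = 0.0378) and -9.11 for miR-221-3p (SE 3.13; edgeR adjusted p = 0.0450), where 7.96% of all arms were called lower and 23.1% had both libraries lower (0.556% had both higher). Both calls were lost without either library of the double mutant (edgeR adjusted p = 0.435 and 0.105 for miR-222-3p, 0.437 and 0.252 for miR-221-3p) or without hsDicer replicate 1 (0.0947 and 0.0737). With snoRNA and snRNA scaling the log2 values were larger in size, -8.93 and -10.26, but missed the threshold (0.0621 and 0.0668). TMM gave -3.06 and -4.70 (0.955 and 0.838) and DESeq2 0.28 and -1.36 (1.0 for each), so that the sign of miR-222-3p turned. Against KO, the log2 value was 0.61 for miR-222-3p (SE 1.86) and -2.27 for miR-221-3p (SE 2.31), both with edgeR adjusted p = 1. miR-221-3p was below KO in both libraries, as were 10.2% of arms (2.41% were above), and 0 of 540 arms were called by edgeR. The 5p arms had 0 and 92 reads for miR-221 and 0 and 1 for miR-222.

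In the helicase mutant the 3p arms stood near their levels in hsDicer. miR-222-3p was at 1742 and 813 CPM in K70A beside 1701 and 749 in hsDicer, a log2 value of 0.06 (SE 1.85; edgeR adjusted p = 1). miR-221-3p was at 548 and 619 CPM, a log2 value of 0.68 (SE 2.21; edgeR adjusted p = 1), and both its libraries were above hsDicer, as for 7.41% of arms (2.22% had both below). None of 540 arms was called by edgeR, and a missed threshold does not show equal levels. miR-221-5p had its highest value of the series in K70A replicate 1, at 213 CPM from 3153 reads or 28.0% of miR-221 reads (Wilson interval 27.2 to 28.8%, counting error only), but 18.5 CPM and 2.90% in replicate 2. All 3153 reads were 1 sequence of 26 nt, while replicate 2 had 3 distinct sequences of this arm. miR-222-5p had no read in K70A replicate 1 and 4.39 CPM in replicate 2.

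The PAZ mutant is the group the pair was chosen for. miR-222-3p was at 1.13 CPM in Y971A/Y972A replicate 1, from 20 reads, and at 127 CPM in replicate 2, from 2076 reads, against 1701 and 749 CPM in hsDicer. miR-221-3p was at 410 and 68.2 CPM, against 386 and 342 CPM. The log2 value against hsDicer was -4.25 for miR-222-3p and -0.61 for miR-221-3p, and against K70A, the other change outside the RNase III domains, -4.31 and -1.29. The contrast between the arms rests on replicate 1: within replicate 2 the log2 ratio to hsDicer was -2.56 for miR-222-3p and -2.33 for miR-221-3p, while within replicate 1 it was -10.55 and 0.08. For miR-221-3p the value against hsDicer was -2.42 without replicate 1 of the mutant and 0.17 without its replicate 2. For miR-222-3p it was -3.27 and -10.07 in turn, -3.37 with TMM and -2.13 with DESeq2. Both libraries of the mutant were below both of hsDicer for miR-222-3p, as for 8.89% of arms (2.59% had both above). Of all arms, 25% had a mean CPM under a sixteenth of hsDicer and 19.3% under a sixteenth of K70A, where 11.7% had both libraries lower. miR-222-3p was the 2nd lowest and miR-221-3p the 13th of the 30 abundant 3p arms in this contrast, whose median was -0.36.

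How low miR-222-3p is in replicate 1 of the PAZ mutant depends on what counts as a read of it. Reads at the usual start numbered 2746 there, of which 2665 (97.0%) were a single 27-nt sequence with 2 bases at its 3′ end that the hairpin does not have. It is printed with these bases in capitals; its length and its end both keep it out of the perfect matches.
miR-222-3p read, Y971A/Y972A replicate 1: agctacatctggctactgggtctctTA
With up to 2 unmatched 3′ bases and reads of 15 to 30 nt, miR-222-3p was at 154.9 and 209.9 CPM in Y971A/Y972A, 3168 and 1077 CPM in hsDicer, 4304 and 1384 in K70A and 1276 and 3248 in WT. The log2 difference from hsDicer was then -4.35 for replicate 1 and -2.36 for replicate 2, in place of -10.55 and -2.56 with perfect matches. The 2 libraries of the mutant lay 137-fold and 1.65-fold higher with this count than with perfect matches. Over the 94 arms of 100 CPM or more in replicate 1 the median was 1.02-fold and 9 arms were over 10-fold higher, miR-222-3p being the 6th. miR-221-3p moved from 410 and 68.2 to 413 and 123 CPM.

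Few distinct sequences lay behind many of these counts, above all in replicate 1. In hsDicer replicate 1, 5566 of 5568 miR-221-3p reads were 1 sequence, and in Y971A/Y972A replicate 1, 7228 of 7236 were 1 sequence, a nucleotide shorter. The same arm had 6 distinct sequences in hsDicer replicate 2 and 5 in Y971A/Y972A replicate 2. miR-222-3p had 4 in hsDicer replicate 1 and 16 in replicate 2, and 4 and 23 in WT. Reads carry no molecular tags, so copies of 1 molecule and several like molecules cannot be told apart.

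In WT, hsDicer and K70A the 3′ ends of miR-222-3p varied more than its 5′ ends. The usual 3′ end is the position most used over both WT libraries together. miR-222-3p ended there (position 72) in 33.6% and 39.7% of reads in WT, 35.7% and 35.7% in hsDicer and 35.0% and 29.6% in K70A. Single libraries could differ: the most used read ended at position 71 in WT replicate 1 (49.7%). In hsDicer replicate 1 it ended at position 67 (9279 of 24522 reads, 37.8%). miR-221-3p ended at its own usual position in 94.1% and 38.5% in WT, 99.96% and 44.4% in hsDicer and 34.4% and 38.4% in K70A. In Y971A/Y972A it did so in 0.0829% and 0.270%, and most reads were 1 nt shorter. Untemplated 3′ tails of 1 to 3 bases were on 1.60% and 29.8% of miR-222-3p reads in WT, 46.5% and 32.2% in hsDicer, 61.0% and 42.4% in K70A and 99.3% and 42.4% in Y971A/Y972A. On miR-221-3p they were on 40.3% and 12.8% in WT, 1.38% and 8.88% in hsDicer, 29.4% and 18.7% in K70A, and 2.41% and 44.5% in Y971A/Y972A. Tails on miR-221-3p were more frequent in both WT and both K70A libraries than in either of hsDicer (exact permutation p = 0.333 for each, the smallest possible). In all, 32 such comparisons were made and 12 gave that smallest p, so none can pass an adjustment.

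The 5p arms passed the edgeR test in 0 of the 9 tested comparisons, with 0 or few reads in most groups. D1320A was the group with 5p reads at over 20 CPM in both libraries for both hairpins. Against KO, whose libraries had no 5p read, the mean in D1320A was at least 130-fold higher for miR-221-5p and at least 198-fold higher for miR-222-5p (floor of 3 reads per library).

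Across the 16 libraries, the arm most like miR-222-3p was miR-484-5p, with Pearson r = 0.96 of log2(CPM + 1), among 90 other arms of 100 CPM or more on average. Next came let-7g-5p (0.90), miR-93-5p (0.89), miR-191-5p (0.89) and miR-181b-5p (0.86). This order leans on the Y971A/Y972A libraries, whose low miR-222-3p chose the pair. Over the other 14 libraries miR-484-5p (0.96) and miR-191-5p (0.96) came first, followed by miR-29a-3p (0.95), miR-143-3p (0.95) and miR-320-3p (0.94), while let-7g-5p stood at place 16, miR-93-5p at 17 and miR-181b-5p at 45. For miR-221-3p the 5 nearest were miR-101b-3p, miR-423-3p, miR-92-3p, miR-214-3p and miR-29b-3p (0.97 each), all 3p arms, and the same 5 came first over the 14 libraries. The correlation of miR-221-3p with miR-222-3p was 0.74 over 16 libraries and 0.90 over 14. The 14-library values were added after the data were seen. Libraries of a group share their Dicer state, and miRNA reads as a whole were low in KO and D1320A/D1709A, so these values describe and carry no p.

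Other miRNAs reported to act on CDK inhibitors were followed as a list of 8 names with 16 arms, all tested. In KO against WT, 2 of the 16 fell, miR-24-3p and miR-24-5p, where 5.74% of all arms were called lower, and the median log2 value was -6.00, beside -6.95 over all arms. Against hsDicer, 1 of 16 fell in D1320A, miR-24-3p, beside 2.04% of all arms, and 1 in D1709A, miR-24-5p, beside 3.33%. The double mutant had 3 lower, with miR-93-5p as the third, beside 7.96%, and K70A had 0 called. The arms of miR-24 were low in different mutants: miR-24-3p was at 30.65 and 20.3 CPM in D1320A and 6009 and 9609 CPM in hsDicer, while miR-24-5p was at 8.52 and 15.2 CPM in D1709A and 1513 and 2058 CPM in hsDicer. The edgeR log2 change of miR-24-3p, D1320A against hsDicer, was -8.26 (SE 1.56; adjusted p = 2.434e-05), and that of miR-24-5p, D1709A against hsDicer, was -7.24 (SE 2.09; adjusted p = 0.01805). miR-93-5p was at 1.30 and 34.6 CPM in Y971A/Y972A against 550 and 109 in hsDicer. In that contrast the list had 12 of 16 arms below 0, and the share of all arms below 0 was not counted. Its median was -1.19, beside -0.15 over all arms and -0.79 over the 202 arms of 10 CPM or more.

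Marker miRNAs of other cells varied between libraries too. Muscle markers (miR-206 the only one of 3 with reads under its exact name) summed to between 0.122 CPM and 953.5 CPM. The highest sum was in Y971A/Y972A replicate 1, where miR-222-3p was lowest among WT, hsDicer, K70A and PAZ libraries. It was 706.6 CPM in K70A replicate 1, where miR-222-3p was high. Blood markers summed to 1958 CPM in hsDicer replicate 1 and 39.0 CPM in replicate 2. Their part in the results was not tested.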

How the data were processed

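The deposited values are counts: per the file headers and the values, the authors gave a count to every distinct read, with the adapter still on it. Their aligner and build are not stated in the sources. Per the labels, RNA of 15 to 50 nt was cut from a gel. The 3′ adapter named in the labels was removed where 12 bases matched, or 5 or more at the read end. Inserts of 18 to 26 nt that equal a stretch of 1 of 1174 sense hairpins of GENCODE M21 (GRCm38) were given to an arm by the hairpin midpoint and scaled to inserts of 15 nt or more. Arms with 20 or more reads in all (540 of 577) entered an edgeR 4.0.16 quasi-likelihood fit over all 16 libraries without TMM (R 4.3.3), 2-sided, called at Benjamini-Hochberg adjusted p under 0.05. The common coefficient of variation was 2.099. The prior degrees of freedom were infinite, so each SE and p of a level rests on a spread shared across arms. The ratio test covered 183 hairpins. The SE is the log2 change over the square root of F. Usual ends are those most used in WT. Seed matches used the transcript with the longest coding sequence. RNAfold 2.7.2 folded the hairpins. Named are the 4 member arms, the listed CDK-inhibitor miRNAs that were called and the 5 nearest arms of each 3p arm. Members and lists were chosen with earlier results of these data known. The level test was run on simulated counts, with recovery required only for the largest fold and at a spread well below that of the data. Recovery at the spread of the data is not given here. Alternatives were TMM, DESeq2 1.42.0, snoRNA and snRNA scaling, other filters and read rules, the replicate block and leaving out each library.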

Additional observations from a re-analysis of the deposited data

How the results depend on the processing

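Of 4 member arms, 1 was called in KO against WT, 1 in hsDicer against KO and 2 in the double mutant against hsDicer; TMM and snoRNA and snRNA scaling gave 0 in each, and DESeq2 0 in the third; its 1 call in each of the first 2 is miR-221-5p, not a 3p arm. With arms of 10 CPM or more, KO against WT, hsDicer against KO and D1320A against hsDicer had 2 and D1320A against D1709A 1. Of all 202 arms at that filter, 69 were called lower and 1 higher in KO against WT. The counts were 57 higher in hsDicer against KO, 20 lower in D1320A against hsDicer, and 16 higher and 13 lower in D1320A against D1709A. DESeq2 gave 1 in place of 0 in D1320A and D1709A against hsDicer, the double mutant against KO and D1320A against D1709A. Over all 540 arms, DESeq2 called 12 higher and 43 lower in D1320A and 30 higher and 5 lower in D1709A against hsDicer. It called 32 higher and 9 lower in the double mutant against KO, and 15 higher and 82 lower in D1320A against D1709A. In KO against WT it called 15 higher and 3 lower, and in hsDicer against KO 7 higher and 12 lower. Leaving out 1 library gave 0 to 1, 0 to 1 and 0 to 2 in the first 3 comparisons. Same-numbered libraries shared a read length, and their deviations correlated at 0.0379 to 0.459 (median 0.194) over 28 pairs of groups, 25 over 0.1; as 3 were not, and the labels name no shared batch, they were not treated as paired. The replicate block gave 2 in KO against WT, where miR-221-3p then passed (edgeR adjusted p = 0.0448), and moved no other count. On the log2 scale, miR-221-3p in D1709A against hsDicer turned to 1.68 with TMM and 5.22 with DESeq2, and ran from -1.52 to 0.41 with 1 library left out; in K70A it turned to -0.32 with TMM. miR-222-3p turned to 1.35 in D1709A and 0.28 in the double mutant with DESeq2. Against KO, the double mutant gave -0.0296 with snoRNA and snRNA scaling and -2.88 to 1.55 with 1 library left out. K70A against hsDicer gave -0.85 with TMM, -0.18 with DESeq2, -0.50 with snoRNA and snRNA scaling and -0.59 to 0.77 with 1 library left out. In the PAZ mutant, with 1 library left out, miR-222-3p ran from -10.07 to -3.27 against hsDicer and -10.13 to -3.33 against K70A, the lowest without its replicate 2; DESeq2 gave -2.13 and -1.95 and TMM -3.37 and -2.52. With tails, the mean log2 ratio of miR-222-3p to miR-221-3p was 1.20 in WT (1.41 without) and -1.83 in D1709A (-2.32 without). Within 1 nt of the usual 5′ end, the share was 100% for miR-221-3p in hsDicer and 34.5% for miR-222-3p in D1320A. Within 1 nt of the 3′ end, miR-221-3p had 83.0% in K70A and 84.96% in D1709A, and miR-222-3p 90.2% in WT, 73.1% in hsDicer, 88.45% in K70A, 82.2% in D1709A and 99.3% in D1320A. The cause of these shifts was not tested. Of the alternative log2 values of 3p arms with a test, 155 kept direction and side, 22 lost and 8 gained a call, and 13 changed sign; with no test, miR-221-3p in the PAZ mutant against hsDicer also changed sign, to 0.17 without its replicate 2. With 2 libraries a group and few reads of some arms, the depth limits the 5p arms and the 3p arms without Dicer.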
